A study of Mus musculus with 7 samples.

Results

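Transcripts of the Jak kinases and Stat factors were followed through 14 probe sets of 8 genes, out of 16255 probe sets and 8378 genes measured in mouse bone marrow. A probe set is the group of short array probes that reads one transcript. It was taken where the platform annotation gave it exactly 1 gene symbol and that symbol was Jak1, Jak2, Jak3, Tyk2 or a member of the Stat family. The genes with such a probe set were 3 kinase genes, Jak1 (3 probe sets), Jak2 (2) and Tyk2 (1), and 5 Stat genes, Stat3 (3), Stat6 (2), and Stat4, Stat5a and Stat5b (1 each). Other members of the families are not analysed here, and 1 probe set that names Jak3 together with another gene was left out by the rule.

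All 7 arrays read bone marrow cells taken from recipients of a marrow transplant that carried a transgene. Unsorted marrow with the mock control transgene gave 3 arrays and unsorted marrow with the ABCG2 transgene gave 2. The EZH2-Mt transgene gave 2 arrays, from marrow described as MDS-like (MDS is myelodysplastic syndrome, in which marrow makes too few mature blood cells) that was sorted on green fluorescent protein, with 1 array of GFP-negative and 1 of GFP-positive cells. ABCG2 is a drug efflux pump and EZH2 the histone methyltransferase of Polycomb repressive complex 2. The series title speaks of genes altered in MDS, and its design text sets ABCG2 marrow against marrow of control transplant mice. Strain, age, sex, vector, promoter, time after transplantation and the change in EZH2 are not given in the sources used here, nor whether the GFP-negative cells came from the donor or the host. A tag of unstated meaning stands in both ABCG2 titles and in no other title, and if it marks a batch, batch and group cannot be told apart. The mice are not numbered, so p-values below measure the spread between these arrays, which may be technical.

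Jak kinases sit on the inner tails of cytokine receptors. When a cytokine joins the receptor chains, the Jaks phosphorylate the receptor and the Stat proteins that dock on it, and the Stats pair, enter the nucleus and bind DNA. Jak1 serves the gp130, interferon and interleukin-7 receptors, Jak2 those for erythropoietin, thrombopoietin and GM-CSF, and Tyk2 the type I interferon and interleukin-12 receptors. In marrow, Stat3 acts downstream of G-CSF and interleukin-6, Stat5a and Stat5b downstream of erythropoietin, thrombopoietin, interleukin-3 and interleukin-7, Stat4 downstream of interleukin-12 in T and NK cells, and Stat6 downstream of interleukin-4 and interleukin-13. The arrays read transcripts, not phosphorylation, so pathway activity was not measured.

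Values are log signals, taken as log2, that were deposited centred on the median of the 7 arrays for each probe set. They show differences between arrays and carry no absolute level, so no gene is ranked above another. Every probe set kept in the files had been called Present or Marginal on 100% of the arrays, so a low value here is still a detected signal.

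The ABCG2 arrays stood apart as a whole. Over all probe sets the SD of the centred values was 1.06 and 1.13 log2 on the ABCG2 arrays, 0.33 to 0.42 on mock arrays, 0.41 on the GFP-negative and 0.54 on the GFP-positive array. The manufacturer's spike-in controls moved with the groups as well, by unlike amounts. The 4 bioB hybridization controls stood at -3.07 and -3.20 log2 on the ABCG2 arrays, 0.99 on the GFP-negative and 2.47 on the GFP-positive array. The 12 bioC, bioD and cre controls moved less on the ABCG2 arrays, at -0.21 and -0.33, and stood at 0.91 on the GFP-negative and 2.14 on the GFP-positive array. On mock arrays bioB ran from -0.032 to 0.00035 and the others from -0.033 to 0.060. The median of 24 labelling controls (dap, lys, phe and thr) was -1.04 and -1.49 log2 on the ABCG2 arrays, from 0 to 0.0039 on mock arrays, 1.79 on the GFP-negative and 3.50 on the GFP-positive array. The actin 5' signal minus its 3' signal, a measure of transcript length after labelling, was -0.40 and -0.42 on the ABCG2 arrays, from -0.036 to 0.050 on mock arrays, -0.14 in GFP-negative and -0.31 in GFP-positive cells. The same measure for Gapdh did not separate ABCG2 from mock arrays, at 0.078 and 0.11 on ABCG2 and 0.075, -0.10 and 0.080 on mock arrays, and was -0.091 in GFP-negative and -0.35 in GFP-positive cells. Cell type markers moved too. Of 12 measured neutrophil markers 12 fell in ABCG2 marrow and of 9 monocyte markers 9 fell, with medians of -5.16 and -3.73 log2 against a median of 0.15 over all genes. Of 13 listed B-lineage markers 6 were measured, and 3 rose and 0 fell. The other 3, Blnk (0.77), Ms4a1 (0.54) and Ighm (-1.54), did not pass. Of 8 stem and progenitor markers 4 rose and 3 fell, of 6 erythroid markers 1 rose and 1 fell, and of 4 T and NK markers 2 rose and 1 fell. Among all genes 35.6% rose and 26.2% fell. In whole marrow, fewer cells of a type and less RNA per cell cannot be told apart. The part of spike-ins, the actin 5' signal and cell types in the results below was not tested.

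In ABCG2 marrow, 9 of the 14 Jak and Stat probe sets fell against mock marrow, 1 rose and 4 did not pass (limma, Benjamini-Hochberg adjusted p under 0.05 over all probe sets, 2 against 3 arrays). Over all 16255 probe sets 25.3% fell and 31.5% rose. The members' median difference was -0.52 log2, beside 0.11 over all probe sets. Most of the falls were small. Of the 9, 3 were of 1 log2 or more and 6 were under it. Those 3 of 14 members stand beside 15.2% of all probe sets, called or not, that lay 1 log2 or more lower. Averaged over the probe sets of each gene, Jak1, Stat3, Stat5b and Stat6 fell, 0 genes rose (in the limma fit, and 0 at an unadjusted p under 0.05), and Jak2, Tyk2, Stat4 and Stat5a did not pass. Among all genes, 26.2% fell and 35.6% rose. With quantile normalization the falls were 3 of 14 probe sets, in Jak1 and Stat3, and 1 of 8 genes, Jak1, with 0 rises, beside 14.5% of probe sets lower and 13% higher, and 17.3% of genes lower and 17% higher, over the whole table.

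**Figure D1:**
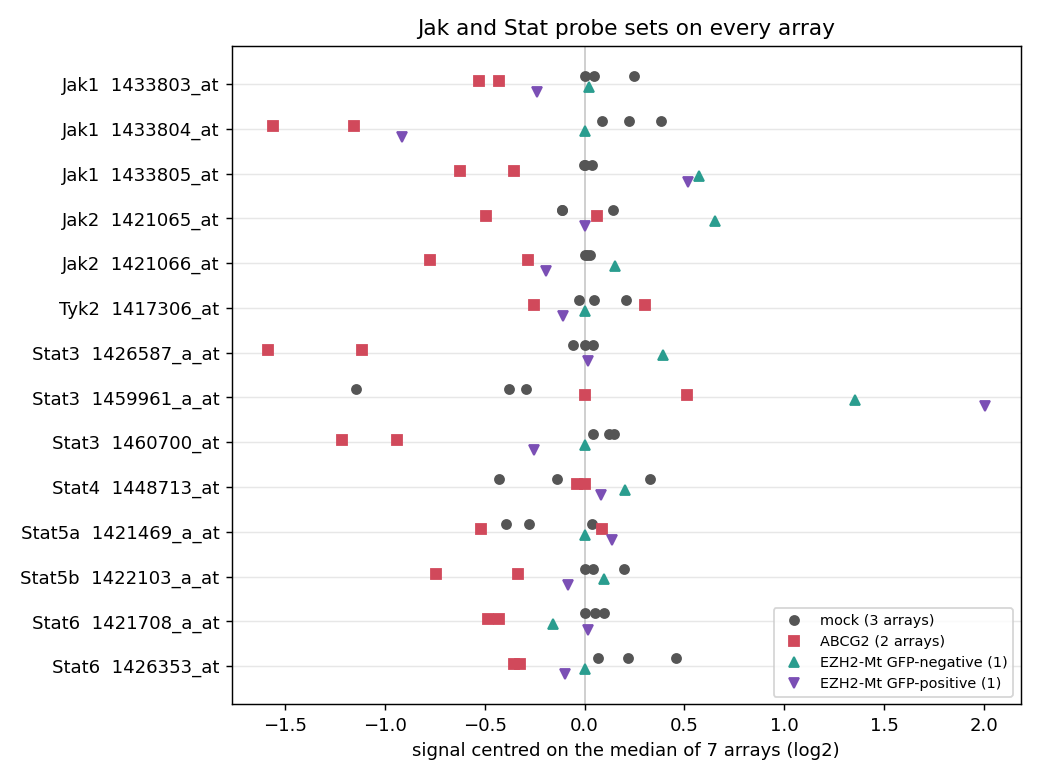
Centred signal (log2, x axis) of each of the 14 Jak and Stat probe sets (rows) on the 3 mock, 2 ABCG2 and 2 EZH2-Mt arrays, 1 point per array. Both ABCG2 arrays lie left of all mock arrays in 9 rows and right of them in 1, the Stat3 probe set 1459961_a_at.

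**Figure D2:**
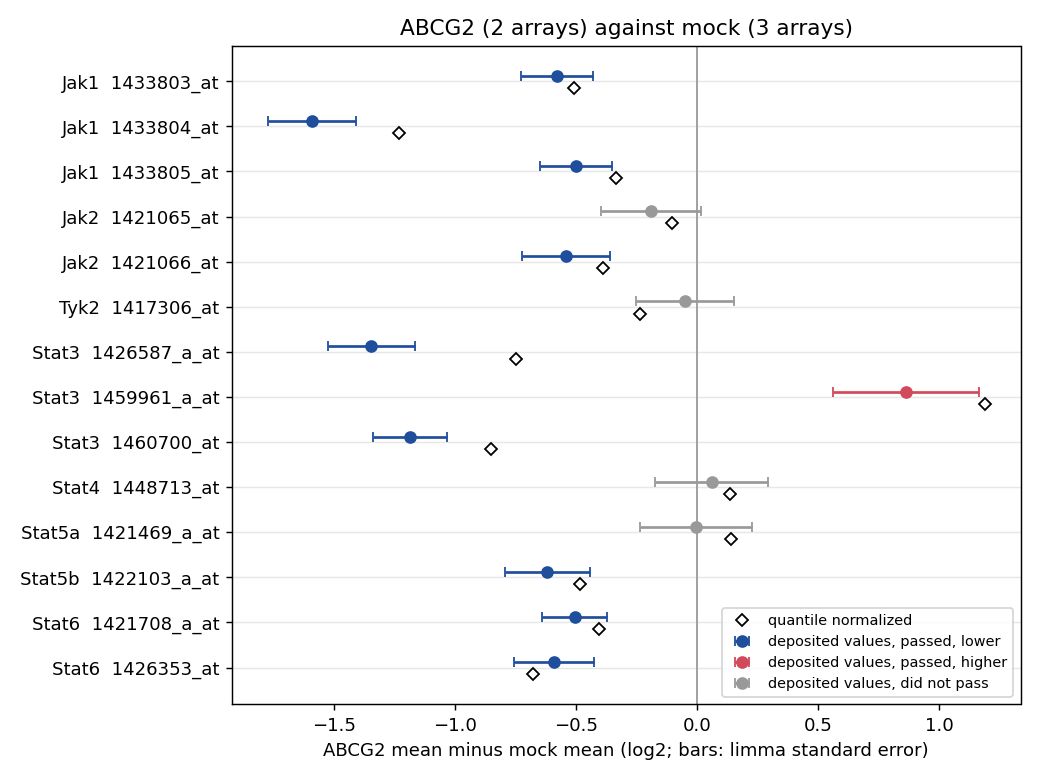
ABCG2 mean minus mock mean (log2, x axis) for each probe set, with limma's standard error as bars and open diamonds for the difference after quantile normalization. The largest falls, of 1.59, 1.34 and 1.18, belong to 1 probe set of Jak1 and 2 of Stat3, and these 3 also passed after quantile normalization.

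Among the kinases, Jak1 fell most. Its probe set 1433804_at read 0.087, 0.38 and 0.22 log2 on mock replicates 1 to 3, -1.16 and -1.56 on ABCG2 replicates 1 and 2, 0 in EZH2-Mt GFP-negative and -0.92 in GFP-positive cells. Both ABCG2 arrays lay more than 1 log2 below every mock array, and the GFP-positive array lay between the groups. The ABCG2 minus mock difference was -1.59 ± 0.18 log2 (limma's standard error, as for all values after ± below), a 3.01-fold fall (adjusted p = 0.00069), and it passed in 5 of 5 fits that left out 1 array, from -1.79 to -1.39.

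The other Jak1 probe sets moved the same way by less. Probe set 1433803_at read 0.047, 0.25 and 0 on mock arrays and -0.43 and -0.53 on ABCG2 arrays, a fall of 0.58 ± 0.15 log2 (limma, adjusted p = 0.0164). Probe set 1433805_at read 0, -0.0016 and 0.036 on mock and -0.35 and -0.62 on ABCG2 arrays, a fall of 0.50 ± 0.15 (limma, adjusted p = 0.0270). The groups did not overlap in either. Both calls were lost without ABCG2 replicate 2 (-0.53 with adjusted p = 0.0671, and -0.37 with adjusted p = 0.131, limma) and without mock replicate 2 (adjusted p = 0.0620 and 0.0763), and that of 1433805_at also without mock replicate 1 (0.0554) or 3 (0.0717). The average of the Jak1 probe sets fell by 0.89 ± 0.14 log2 (limma, adjusted p = 0.00208). That gene value passed in 5 of 5 leave-one-out fits, from -1.02 to -0.76, and after quantile normalization (-0.69, adjusted p = 0.0258).

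The Jak1 probe sets disagreed in the sorted EZH2-Mt cells. While 1433804_at was low in GFP-positive cells, 1433805_at stood at 0.57 in GFP-negative and 0.52 in GFP-positive cells, above all mock arrays, and 1433803_at at 0.021 and -0.24. The distance between 1433804_at and 1433805_at was 0.087 to 0.39 log2 on mock arrays and -0.80 and -0.94 on ABCG2 arrays, and it reached -1.43 in GFP-positive cells against -0.57 in GFP-negative cells. Which Jak1 transcripts or exons each probe set reads is not given in the sources used here.

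The 300 bases around the Jak1 start (250 before it and 50 after it), from RefSeq on GRCm38.p6, chr4:101265174-101265473 on the minus strand, are shown because Jak1 and Stat3 gave the largest falls and are the members whose promoter windows hold both a GC box and a CCAAT box beside Tyk2. Capitals mark the GC box, GGGCGG, and the CCAAT box, on either strand.

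Jak1: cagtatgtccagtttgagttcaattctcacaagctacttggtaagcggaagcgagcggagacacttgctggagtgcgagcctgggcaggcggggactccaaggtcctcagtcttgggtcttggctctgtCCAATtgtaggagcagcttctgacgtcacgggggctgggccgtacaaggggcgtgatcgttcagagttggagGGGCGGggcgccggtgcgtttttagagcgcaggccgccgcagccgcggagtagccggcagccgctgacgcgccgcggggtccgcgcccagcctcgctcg

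Jak2, the kinase of erythropoietin and GM-CSF signalling, split between its probe sets. In 1421066_at the mock arrays lay within 0.026 log2 of each other (0.026, 0.010 and 0) and the ABCG2 arrays at -0.28 and -0.77, a fall of 0.54 ± 0.18 log2 (limma, adjusted p = 0.0414). That call was lost when mock replicate 1, 2 or 3 or ABCG2 replicate 2 was left out (adjusted p from 0.0895 to 0.209 by limma, and -0.29 without ABCG2 replicate 2). In 1421065_at mock arrays read 0.14, -0.11 and -0.11 and ABCG2 arrays 0.060 and -0.49. There the groups overlapped, and the difference of -0.19 ± 0.21 log2 did not pass (limma, adjusted p = 0.463, 95% interval from -0.69 to 0.31). The gene average differed by -0.36 ± 0.18 (limma, adjusted p = 0.125), and it passed without ABCG2 replicate 1 (-0.62, adjusted p = 0.0193). Both probe sets were highest in EZH2-Mt GFP-negative cells, at 0.65 in 1421065_at and 0.15 in 1421066_at, and lay at 0 and -0.19 in GFP-positive cells.

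Tyk2, which partners the interferon and interleukin-12 receptors, gave no call. Its probe set 1417306_at read -0.027, 0.21 and 0.048 on mock, -0.25 and 0.31 on ABCG2, 0 on GFP-negative and -0.11 on GFP-positive arrays. The ABCG2 arrays lay on both sides of the mock arrays and differed from each other by 0.56 log2. The difference was -0.050 ± 0.20 log2 (limma, adjusted p = 0.849, 95% interval from -0.54 to 0.44).

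Stat3 gave falls in 2 probe sets and a rise in the third. Probe set 1426587_a_at read 0.045, -0.060 and 0 on mock arrays and -1.11 and -1.59 on ABCG2 arrays. Probe set 1460700_at read 0.15, 0.042 and 0.12 on mock arrays and -0.94 and -1.22 on ABCG2 arrays. In both, every ABCG2 array lay well below every mock array. The falls were 1.34 ± 0.18 log2 (2.54-fold, adjusted p = 0.00124) and 1.18 ± 0.15 log2 (2.27-fold, adjusted p = 0.00105, limma). Both passed in 5 of 5 leave-one-out fits, and after quantile normalization, where the first was -0.75 (adjusted p = 0.0331) and the second -0.85 (adjusted p = 0.0179, limma).

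The Stat3 probe set 1459961_a_at went the other way. It read -0.38, -0.30 and -1.15 on mock arrays, 0.51 and 0 on ABCG2 arrays, 1.36 in GFP-negative and 2.004 in GFP-positive cells. Mock arrays were the lowest, with replicate 3 far under the others, ABCG2 arrays came next and the sorted EZH2-Mt cells were highest. The rise of 0.86 ± 0.30 log2 in ABCG2 marrow passed narrowly (limma, adjusted p = 0.0474). It was lost with quantile normalization (1.19, adjusted p = 0.103), with array weights (0.79, adjusted p = 0.0813) and without mock replicate 1, 2 or 3 or ABCG2 replicate 1 (0.59 to 1.02, adjusted p from 0.0521 to 0.198, limma). The Stat3 average of -0.56 ± 0.18 log2 (limma, adjusted p = 0.0321) mixes these directions. It was lost with quantile normalization (-0.14, adjusted p = 0.642) and without mock replicate 1 (-0.50, adjusted p = 0.0841), mock replicate 2 (-0.52, adjusted p = 0.0965) or ABCG2 replicate 2 (-0.34, adjusted p = 0.160), and it turned to 0.86 when the probe set with the largest range stood for the gene.

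The distance between 1459961_a_at and 1426587_a_at ran from -1.15 to -0.24 log2 on mock arrays, was 1.63 and 1.59 on ABCG2 arrays, 0.96 in GFP-negative and 1.99 in GFP-positive cells. The other Stat3 probe sets kept within 0.39 log2 of each other on every array. Calls in both directions within 1 gene were found for 126 of the 3624 genes with more than 1 probe set (3.48%), and Stat3 was the 1 member gene of 4 with several probe sets that showed it. What distinguishes the Stat3 probe sets is not given in the sources used here.

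**Figure D3:**
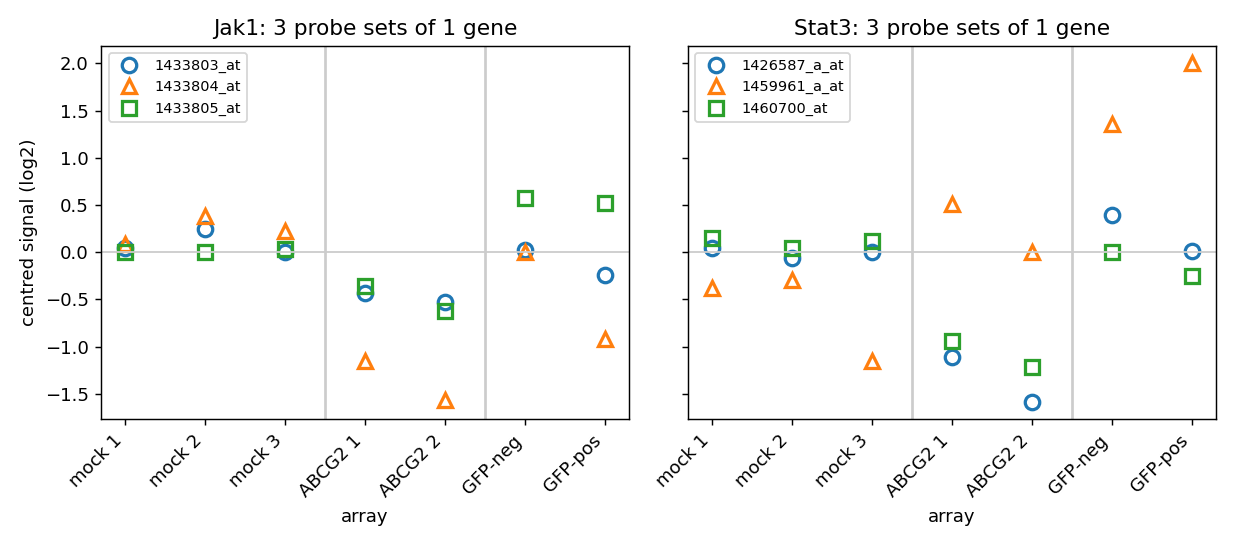
Centred signal (log2, y axis) on each of the 7 arrays (x axis) for the 3 probe sets of Jak1 (left) and of Stat3 (right), 1 point per array, with vertical lines between mock, ABCG2 and EZH2-Mt arrays. In Stat3 the triangles (1459961_a_at) rise to 2.004 in GFP-positive cells while the other probe sets stay between -0.26 and 0.39 in the sorted cells. In Jak1 the triangles (1433804_at) fall to -0.92 in GFP-positive cells while the squares (1433805_at) stand at 0.52.

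The window around the Stat3 start, chr11:100939491-100939790 on the minus strand of the same build, is printed with the same capitals.

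Stat3: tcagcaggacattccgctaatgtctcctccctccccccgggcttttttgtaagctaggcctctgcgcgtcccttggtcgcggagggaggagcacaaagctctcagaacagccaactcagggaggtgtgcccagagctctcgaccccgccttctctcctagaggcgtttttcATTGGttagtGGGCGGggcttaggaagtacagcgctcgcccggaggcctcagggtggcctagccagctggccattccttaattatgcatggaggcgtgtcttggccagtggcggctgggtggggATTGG

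RefSeq held 11 such windows for the 8 genes. The letters TTCNNNGAA, the palindromic site that most Stat dimers bind, were found in 0 of these windows, against 8.30% of 32851 windows of the same length over all genes. The same letters with 4 bases between them, the spacing preferred by Stat6, were found in 0 of 11 against 6.95%. Both motifs read the same on either strand. A match would be a description only, and the lack of one says only that these letters are not in these windows. GGGCGG stood in 6 of the 11 windows against 35.7% of all, and CCAAT in 4 against 37.4%. The windows of Jak2 and of 1 Stat5b start were the richest in G and C (81.0% and 82.7%), and those of Stat4 were among the poorest (50.7% and 46.0%), against a median of 52.7% over all windows.

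Stat5a and Stat5b are near-identical factors encoded side by side, and with Stat3 they form 3 neighbouring genes with 0 other protein-coding genes between them in RefSeq. The array values of the pair differed. Stat5b, probe set 1422103_a_at, read 0.20, 0.040 and 0 on mock arrays, -0.33 and -0.74 on ABCG2 arrays, 0.097 in GFP-negative and -0.082 in GFP-positive cells. It fell by 0.62 ± 0.18 log2 in ABCG2 marrow (limma, adjusted p = 0.0234), with both ABCG2 arrays below all mock arrays. The call was lost with quantile normalization (-0.48, adjusted p = 0.120), without ABCG2 replicate 2 (-0.41, adjusted p = 0.117) and without mock replicate 1 (-0.56, adjusted p = 0.0635) or 2 (-0.64, adjusted p = 0.0622).

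Stat5a, probe set 1421469_a_at, read -0.39, 0.036 and -0.28 on mock arrays, 0.086 and -0.52 on ABCG2 arrays, 0 in GFP-negative and 0.14 in GFP-positive cells. The ABCG2 arrays lay above and below all mock arrays, and the difference was -0.0041 ± 0.23 log2 (limma, adjusted p = 0.989, 95% interval from -0.56 to 0.55). Array by array, the centred Stat5b value minus the centred Stat5a value was 0.59, 0.0047 and 0.28 on mock arrays and -0.42 and -0.22 on ABCG2 arrays. Those groups did not overlap, but whether the genes differed in their response was not tested. Transcripts of near-identical genes can also bind each other's probes, and the probes are not given in the sources used here.

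Stat6, the factor of interleukin-4 signalling, fell in both of its probe sets and with similar size. Probe set 1421708_a_at read 0.095, 0 and 0.050 on mock and -0.48 and -0.43 on ABCG2 arrays, a fall of 0.50 ± 0.13 log2 (limma, adjusted p = 0.0182). Probe set 1426353_at read 0.46, 0.069 and 0.22 on mock and -0.36 and -0.32 on ABCG2 arrays, a fall of 0.59 ± 0.17 (limma, adjusted p = 0.0221). The ABCG2 replicates agreed within 0.057 log2 in both. The gene average fell by 0.55 ± 0.14 log2 (limma, adjusted p = 0.0124) and passed in 5 of 5 leave-one-out fits, from -0.60 to -0.48, while single probe sets did not: 1421708_a_at was lost without ABCG2 replicate 1 or mock replicate 2 or 3 (adjusted p from 0.0501 to 0.0652) and 1426353_at without either ABCG2 replicate or mock replicate 3 (from 0.0537 to 0.0687). After quantile normalization the gene value was -0.54 (adjusted p = 0.0556). In the sorted cells the probe sets lay between -0.16 and 0.019.

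Stat4, the interleukin-12 factor of T and NK cells, gave no call. Probe set 1448713_at read 0.33, -0.43 and -0.14 on mock, 0 and -0.036 on ABCG2, 0.20 on GFP-negative and 0.083 on GFP-positive arrays. All 4 arrays of the other groups fell inside the mock range. The difference of 0.061 ± 0.23 log2 (limma, adjusted p = 0.839, 95% interval from -0.50 to 0.63) did not pass. Of 4 measured T and NK markers, 2 rose, 1 fell and 1 did not pass in the same comparison.

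The ABCG2 replicates did not agree in every member. Replicate 2 was lower than replicate 1 in 11 of the 14 probe sets, among them 7 of the 9 that fell, against 44.3% of all probe sets. The gap was widest in Stat5a (-0.61), Tyk2 (0.56) and the Jak2 probe set 1421065_at (-0.55), which are among those that did not pass. Both ABCG2 arrays lay below all mock arrays in 9 members and above them in 1, where 32.6% and 40.6% of all probe sets did so.

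Sorted EZH2-Mt cells showed smaller differences between the fractions, with 1 array each and so no replicate check. GFP-positive minus GFP-negative reached 2-fold (1 log2) in 0 of the 14 members, against 5.13% of all probe sets and 0.671%, 2.07% and 2.52% between the pairs of mock arrays. The largest were -0.92 log2 in Jak1 1433804_at, -0.65 in Jak2 1421065_at and 0.65 in Stat3 1459961_a_at. After quantile normalization 1 member reached 2-fold. GFP-positive values were lower than GFP-negative ones in 11 of 14 probe sets, the exceptions being Stat3 1459961_a_at, Stat5a (0.14) and Stat6 1421708_a_at (0.18). The share of all probe sets lower in GFP-positive cells was not counted, so this direction cannot be called particular to the members. The difference between the fractions exceeded the range of the 3 mock arrays for the same probe set in 8 of the 14 members, against 46.4% of all probe sets.

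Against the mock mean, 1 member lay 2-fold or more away in GFP-negative cells and 2 in GFP-positive cells, where 6.43% and 12.2% of all probe sets did. Stat3 1459961_a_at was higher by 1.96 log2 in GFP-negative and 2.61 in GFP-positive cells, and Jak1 1433804_at lower by -1.15 in GFP-positive cells. GFP-positive cells lay above the mock range in 3 members and below it in 7, beside 43.4% and 33.6% of all probe sets. GFP-negative cells lay above it in 5 and below it in 4, beside 39.1% and 30.8%. Sorted cells were compared here with unsorted marrow, so sorting and transgene cannot be told apart. Erythroid markers were higher in GFP-positive than in GFP-negative cells by a median of 1.33 log2 over 6 genes, and T and NK markers lower by a median of -1.22 over 4. B-lineage markers were higher by a median of 1.01 over 6 genes and neutrophil markers by 0.84 over 12. Medians for monocyte markers (0.0066 over 9) and for stem and progenitor markers (0.070 over 8) lay near 0. Their part in the Jak and Stat values was not tested.

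**Figure D4:**
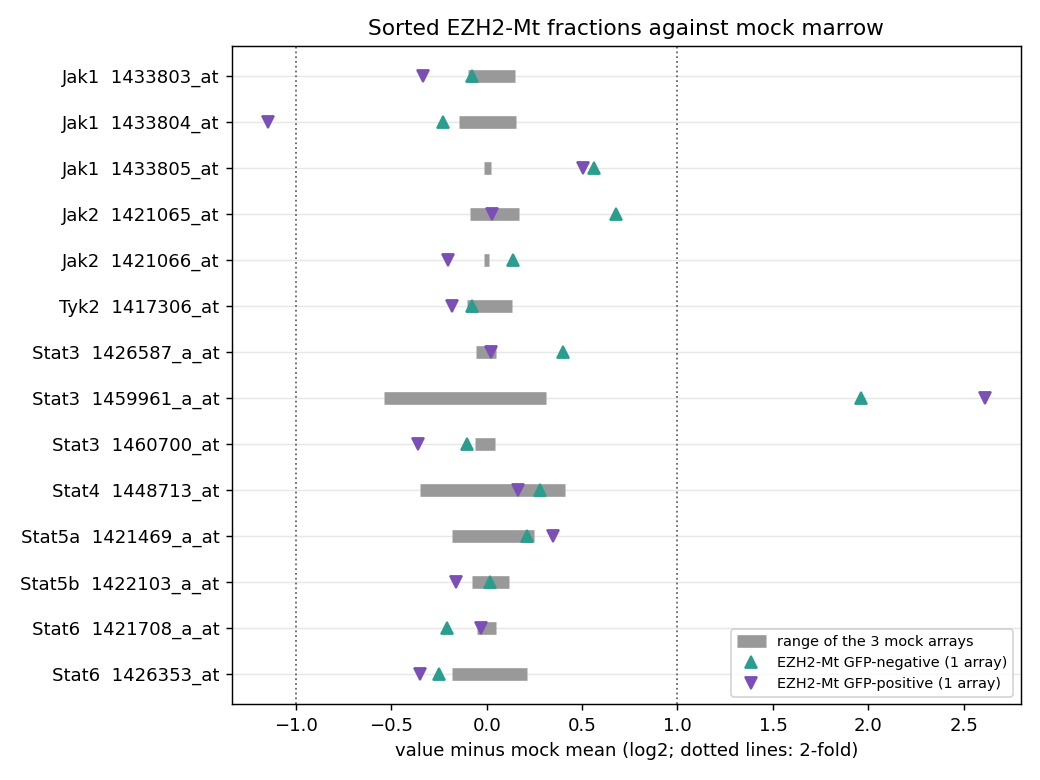
Value of each Jak and Stat probe set in EZH2-Mt GFP-negative (upward triangles) and GFP-positive cells (downward triangles) minus the mock mean (log2, x axis), with grey bars for the range of the 3 mock arrays and dotted lines at 2-fold. Stat3 1459961_a_at lies beyond the right line in both fractions and Jak1 1433804_at beyond the left line in GFP-positive cells.

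Upstream of the kinases, cytokine receptor genes fell more often than they rose in ABCG2 marrow. Of 40 listed genes 21 were measured, and 11 fell, 4 rose and 6 did not pass, with a median of -0.81 log2 against 0.15 over all genes. These are 52.4% lower and 19.0% higher, beside 26.2% and 35.6% of all genes. The list also holds Il17ra, Il18r1, Kit and Flt3, whose receptors do not work mainly through Jaks. Csf2ra and Csf2rb, the chains of the GM-CSF receptor that works through Jak2 and Stat5, fell by 4.25 ± 0.14 and 2.02 ± 0.15 log2. Il6ra, the ligand-binding chain for interleukin-6, fell by 4.04 ± 0.21, Il13ra1 by 3.73 ± 0.22 and Crlf2, the TSLP receptor chain, by 2.48 ± 0.43. Il6st, which encodes the gp130 chain that joins Il6ra to Jak1 and Stat3 and was chosen after its values were seen, read 0.43, 0.70 and 0.73 on mock and -0.33 and -0.54 on ABCG2 arrays, a fall of 1.05 ± 0.16 log2 (limma, adjusted p = 0.00149).

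The receptor genes that rose were Il7r (5.93 ± 0.34), Il18r1 (3.51 ± 0.15), Flt3 (2.84 ± 0.32) and Ifnar1 (0.86 ± 0.16). For Il7r, whose receptor uses Jak1 and Stat5, mock arrays ran from -4.84 to -3.74, ABCG2 arrays stood at 1.35 and 1.95 and the sorted EZH2-Mt cells at 1.43 and 0. Without ABCG2 replicate 2 the count of rises was 8 in place of 4, and Il21r (1.88, adjusted p = 0.00980, limma) and Ifngr1 (0.78, adjusted p = 0.00855) then passed. With all arrays they stood at 1.15 ± 0.48 (adjusted p = 0.0733) and 0.50 ± 0.18 (adjusted p = 0.0514, limma). The share of all genes that rose without ABCG2 replicate 2 was not counted. Of 30 cytokine genes 3 were measured. Il6 and Il15 fell, by 4.91 ± 0.64 and 4.40 ± 0.16 log2, and Osm stood at -0.96 ± 0.47 (limma, adjusted p = 0.117). Without mock replicate 1 Osm passed (-1.43, adjusted p = 0.00954, limma), and with quantile normalization Il6 did not (-2.46, adjusted p = 0.0577).

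Among inhibitors and adaptors 27 of 30 genes were measured, and 10 rose, 8 fell and 9 did not pass, with a median of -0.055 log2. Against the 35.6% and 26.2% of all genes, 37.0% and 29.6% are near the background. Socs2, Cish, Socs5 and Socs3, feedback inhibitors that bind Jaks or activated receptors, rose by 7.20 ± 0.38, 3.25 ± 0.16, 2.57 ± 0.24 and 1.93 ± 0.33 log2, and Pias2 by 1.22 ± 0.17. Gab2 (-1.10 ± 0.15), Ptprc (-0.95 ± 0.20), which encodes CD45, Ptpn1 (-0.91 ± 0.13), Shc1 (-0.88 ± 0.17) and Grb2 (-0.78 ± 0.14) fell. Stam2 (-0.54 ± 0.23) and Pias3 (-0.39 ± 0.15) did not pass, and Pias3 did without mock replicate 3 (-0.49, adjusted p = 0.0452, limma). With quantile normalization 6 rose and 4 fell, beside 17% and 17.3% of all genes. Ptprc (-0.56, adjusted p = 0.0663) and Shc1 (-0.61, adjusted p = 0.0555, limma) then no longer passed.

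Genes known as Stat targets went both ways, 10 of 26 measured higher, 7 lower and 9 not passing, with a median of 0.36 log2. The shares of 38.5% and 26.9% are again near those of all genes. The feedback inhibitors Socs2, Cish and Socs3, which rose, were counted among the inhibitors and not here. These shares are therefore those of this list only. The list does not divide its genes by Stat factor, so the directions are not those of single Stats. The largest rises were in Pim2 by 4.53 ± 0.27, Bcl2 by 3.14 ± 0.25, Ccnd2 by 2.95 ± 0.18, Myc by 2.42 ± 0.65 and Ccnd1 by 1.98 ± 0.28 log2. Cebpd fell by 5.31 ± 0.15, Bcl6 by 2.76 ± 0.13, Irf8, an interferon regulatory factor of monocytes, by 2.50 ± 0.21, Bcl3 by 1.20 ± 0.18 and Mcl1 by 1.02 ± 0.17. Junb (1.14 ± 0.48) and Pim3 (0.60 ± 0.33) did not pass, and Pim3 did without ABCG2 replicate 2 (1.10, adjusted p = 0.0212, limma). The Myc call was lost when ABCG2 replicate 2 was left out (1.44, adjusted p = 0.0748) or with quantile normalization (1.88, adjusted p = 0.0956), nor did Ccnd1 then (1.04, adjusted p = 0.0754, limma), when 5 targets rose. With quantile normalization 17% of all genes rose. The Stat targets also differ between marrow cell types, and the part of cell types in the differences was not tested.

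**Figure D5:**
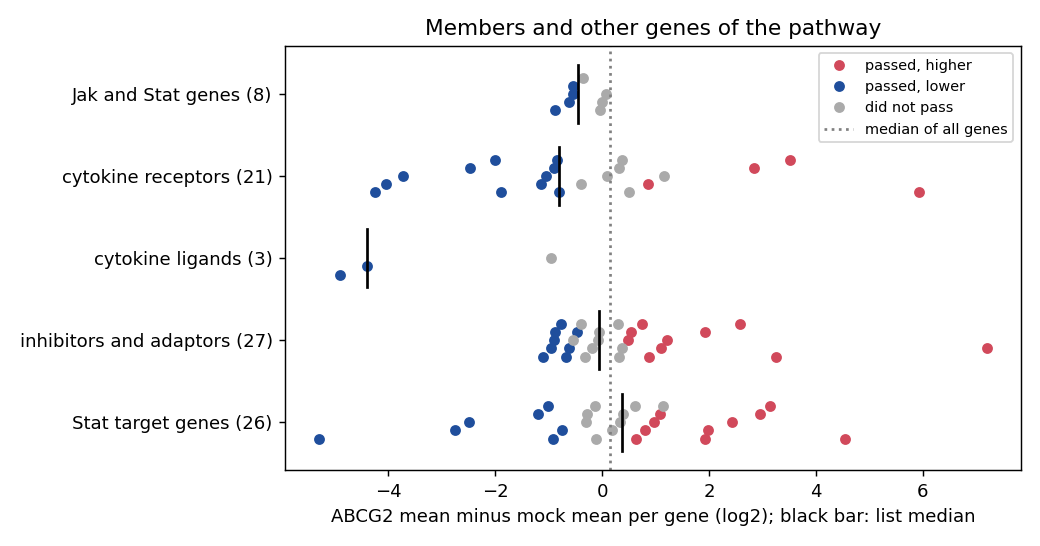
ABCG2 mean minus mock mean per gene (log2, x axis) for the 8 Jak and Stat genes and for 4 lists of other pathway genes (rows, number measured in brackets), with 1 point per gene, black bars for list medians and a dotted line for the median of all genes, 0.15. As averages over probe sets, the Jak and Stat genes lie within -0.89 to 0.061, while their single probe sets run from -1.59 to 0.86. Receptors, inhibitors and targets, which are longer lists, run from -5.31 to 7.20.

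The pathway lists were also compared between the sorted EZH2-Mt fractions, with 1 array each and no test. Of 21 receptor genes 0 were 2-fold or more higher and 2 lower in GFP-positive cells, Il7r (-1.43) and Il18r1 (-1.12), beside 1.77% and 1.34% of all genes. Socs2 was the 1 gene of 27 inhibitors and adaptors past 2-fold, at -2.24. Of 3 ligands Il6 (-2.17) and Osm (-1.27) were lower, and among 26 targets Bcl6 was lower, at -1.11, and 1 gene was higher.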

How the data were processed

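The authors deposited log2-type signals from 7 Affymetrix Mouse430_2 arrays, with the base of the logarithm unstated and taken as 2. MAS5 is named, with no version, in the submitters' processing notes. Per the file headers, probe sets had a raw signal between 3 and 120534, and each was called Present or Marginal in 100% of samples. How arrays were scaled is not given in the sources used here. The median of the arrays was 0 for each of 16309 probe sets. The sample files and the value table held the same values (largest difference 0), with 0 columns of other samples.

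The 54 manufacturer controls were left out of the tests. Of the other 16255 probe sets, 14229 had 1 gene symbol, 483 several and 1543 none. ABCG2 was compared with mock by limma 3.58.1 (R 4.3.3, lmFit and eBayes, two-sided, Benjamini-Hochberg over all features, threshold 0.05), per probe set and per gene as the mean of its probe sets. A fold assumes base 2. The fit was also tested on simulated data for ABCG2 minus mock over 16255 probe sets, with 100 changed by 1 log2 and 100 by 2 log2. It called 39.0% of true changes of 1 log2 and 80.0% of those of 2 log2. In the data 25.3% of probe sets fell and 31.5% rose. With so many calls the adjusted p is less strict, so these shares do not give the power of the comparison made here. The number of arrays limits the precision. The sorted fractions had 1 array each and no test.

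The members and gene lists were chosen with earlier results of these data known. Every member is given. Of each pathway list, up to 5 called genes a direction with the largest differences and the 2 largest that did not pass were named. Genes most like a member were to be named for members whose range over the arrays reached 2 log2, which held for 0 genes. The Entrez IDs of 14 of 14 member probe sets matched RefSeq (GRCm38.p6), used for names, neighbours and promoter windows. Alternatives were quantile normalization of the centred values, median centring, array weights, a robust variance prior and the replicate number as a block. Others were fewer probe sets, a fold threshold, another gene value and leaving out each array.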

Additional observations from a re-analysis of the deposited data

How the results depend on the processing

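With quantile normalization the falls went from 9 to 3 member probe sets and from 4 to 1 member genes, the rises of probe sets from 1 to 0, of inhibitors and adaptors from 10 to 6 and of Stat targets from 10 to 5, and the falls of ligands from 2 to 1 and of inhibitors from 8 to 4. Over all genes the rises went from 35.6% to 17% and the falls from 26.2% to 17.3%. Over all probe sets the rises went from 31.5% to 13% and the falls from 25.3% to 14.5%. Quantile normalization narrows the wide spread of the ABCG2 arrays by construction, and how much of these changes comes from that was not tested. Between the sorted fractions 1 member in place of 0 reached 2-fold with quantile normalization. A fold threshold of 1 log2 left 3 falls and 0 rises of member probe sets, 0 falls of member genes, and 6 rises and 1 fall of inhibitors, by construction. At 0.5 log2 in place of 1 log2, 3 members differed between the sorted fractions, beside 27.1% of all probe sets. In either fraction or both, 4 members in place of 2 then lay that far from the mock mean. The share of all probe sets that did so was not counted. Array weights left 0 rises of member probe sets. With the probe set of largest range standing for a gene, 1 member gene rose in place of 0, and Stat3 reversed from -0.56 to 0.86 (limma, adjusted p = 0.0440). Leaving out 1 array gave 4 to 7 falls and 0 to 1 rises of member probe sets, 2 to 5 falls of member genes, and 4 to 8 rises of receptor genes. Of the probe sets, 3 (Jak1 1433804_at, Stat3 1426587_a_at and Stat3 1460700_at) passed in every fit that left out 1 array. The share of all features called with array weights or with 1 array left out was not counted. Leaving out an array also weakens the fit for every feature, so fewer calls there cannot be called particular to the members. Apart from the fold threshold, the cause of the changed counts was not tested.

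Mock and ABCG2 arrays share the replicate numbers 1 and 2 in the labels, with nothing to say that a number marks a shared mouse or day. Deviations from the group means correlated across probe sets at 0.084 for number 1 and -0.044 for number 2. Pairs with unlike numbers ran from -0.14 to 0.14. The deviations of 2 ABCG2 arrays from their mean mirror each other, so these values are not separate checks. With the replicate block, 4 member probe sets fell and 0 rose, and 4 member genes fell. The block leaves less to estimate the spread from for every feature, and the share of all features called in that fit was not counted. Median centring of arrays, the robust variance prior and the narrower set of probe sets kept each of these counts within 1.5 times.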
